A study of Mus musculus with 9 samples.

Results

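The genes described here encode the protein chains of the vascular basement membrane: the collagen IV chains Col4a1 and Col4a2, the laminin chains Lama4, Lama5, Lamb1, Lamb2 and Lamc1, the nidogens Nid1 and Nid2, and perlecan, Hspg2. They were chosen by name for their role in the membrane, with no threshold on a measured value but with earlier results of these data known, and are 10 of the 39179 Ensembl genes counted in each library. RNA was sequenced from capillaries and the cells around them, which had been cut by laser microdissection from the ossification front (OF) of the femur, the zone under the growth plate where bone is laid down. All animals carried the Tg(TIE2GFP)287Sato/J transgene, in which the promoter of the endothelial receptor Tie2 drives GFP, the labels give C57BL/6 as their origin, and no treatment was given. Juvenile mice were 4 weeks old (n = 5) and adult mice 12 weeks old (n = 4), with 1 library per mouse. GFP fluorescence guided the cut, so each library held perivascular and bone cells as well as endothelial cells, and fewer cells of a type and less RNA per cell cannot be told apart in such material. The Tie2 promoter is also active in some blood cells.

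Every blood vessel rests on a basement membrane, a thin sheet of matrix made by endothelial cells together with the mural cells around them. Laminin trimers, each built of an alpha, a beta and a gamma chain, polymerise on the cell surface and are held there by integrins and dystroglycan. A second network of collagen IV gives the sheet its tensile strength, and nidogens and the heparan sulfate proteoglycan perlecan tie both networks together and hold growth factors. In growing bone, capillaries at the OF advance into the cartilage of the growth plate, and the matrix around them is laid down and degraded at the same time. The comparison of juvenile with adult mice asked which transcripts differ between vessels in active bone growth and vessels after it.

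Library totals ranged from 4856833 to 7398483 counts in juvenile mice and from 5821596 to 8077362 counts in adult mice. A floor of 3 counts corresponded to between 0.371 and 0.618 CPM, for this floor the count scaled to the library total. This floor covers counting error only, because PCR copies of a molecule are counted as separate reads. All 13 endothelial markers examined, among them Pecam1, Cdh5 and Emcn, were detected in all 9 libraries, and the mean log2 CPM of these markers was 5.39 ± 0.26 in juvenile mice (SD, n = 5) and 5.44 ± 0.27 for adult libraries (SD, n = 4). Of the other cell types, 5 marker means did not overlap between the ages. The mean of 10 osteoblast markers was 10.9 to 11.1 in juvenile and 9.91 to 10.5 in adult libraries, and it was the only one of the 5 that was higher in juvenile mice. Means of 10 markers of CXCL12-abundant reticular (CAR) stroma, a perivascular cell of the marrow, were 3.03 to 4.14 and 4.47 to 5.47, those of 8 erythroid markers 2.88 to 3.97 and 6.33 to 9.57, those of 8 neutrophil markers -0.63 to 1.59 and 2.41 to 8.34, and those of 7 megakaryocyte markers 0.39 to 0.80 and 0.81 to 7.72. Not every marker followed the mean of its list. Scaled to a common library size, the osteoblast marker Bglap had mean counts of 9335 in juvenile and 38366 in adult mice. The CAR marker Lepr had 894 and 250. The ages overlapped for 10 mural markers (3.62 to 4.67 and 3.45 to 5.80) and 8 chondrocyte markers (1.84 to 3.99 and 0.74 to 7.27). The part of these cells in the levels of the 10 genes was not tested. Juvenile replicates 4 and 5 held 1099 and 978 counts on 4 Y-linked genes, against at most 5 in every other library. Y-linked genes are carried by males only, so sex was not balanced between the ages. Calls lost without juvenile replicates 4 and 5 are given beside the gene.

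Values given with ± are means and SD over the 5 juvenile or the 4 adult libraries. All 10 genes were detected in all 9 libraries and passed the filter on low counts. The age comparison used edgeR's quasi-likelihood test with Benjamini-Hochberg adjustment over the 13418 genes tested, and a gene was called at an adjusted p under 0.05. None of the 10 genes was called, where 3.88% of all tested genes were (1.99% with higher values in juvenile and 1.89% in adult mice). At an unadjusted p under 0.05 there were 3 of them (Hspg2, Lama4 and Col4a1), where 17.3% of all tested genes passed. DESeq2 called 1 of the 10, Hspg2, with 9.61% of the genes it tested called, and limma's voom called 0, with 3.43%. The fitted log2 fold change was above 0, which means higher in juvenile mice, for 9 of the 10, where 49.5% of all tested genes were above 0, and its median was 0.35 over the 10 genes and -0.01 over all tested genes. For no member were the normalized read counts of the ages separate, where 9.15% of all tested genes had ages that did not overlap (5.07% with the juvenile and 4.08% with the adult values on top).

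**Figure D1:**
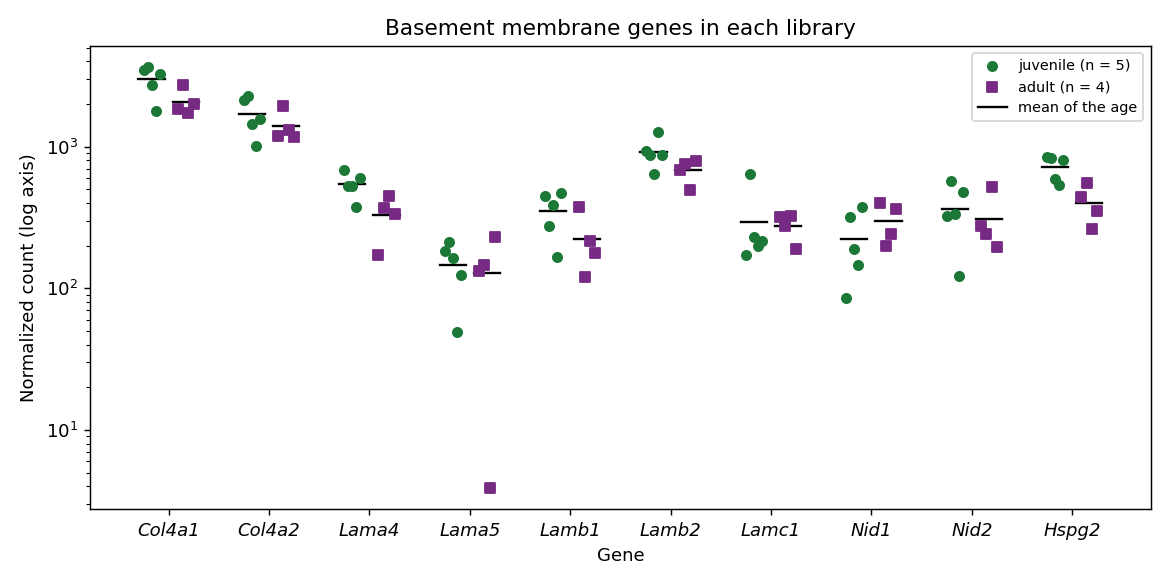
Normalized read count of each gene (logarithmic axis) in every library, with juvenile mice as circles (n = 5), adult mice as squares (n = 4) and a bar at the mean of each age. The ages overlap for every gene, collagen IV lies highest, and Lama5 in adult replicate 3 lies far below all other points.

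Collagen IV was the most abundant of the groups. Col4a1 and Col4a2 encode the chains of the ubiquitous collagen IV trimer, which is present in every basement membrane and forms a network once secreted. The genes lie head to head on chromosome 8 (GRCm38), Col4a1 at chr8:11198423-11312826 on the minus strand and Col4a2 at chr8:11312805-11449287 on the plus strand. Their start sites are 21 bases apart, and their first exons share 22 bases on opposite strands. The stretch is shown because both genes start inside it and are transcribed in opposite directions. It spans chr8:11312801-11312830 in RefSeq's promoter windows for GRCm38.p6 and is written 5′ to 3′ on the strand of each gene, with the 22 shared exon bases in capitals.
Col4a2: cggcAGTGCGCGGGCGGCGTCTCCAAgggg
Col4a1: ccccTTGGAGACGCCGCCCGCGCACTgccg
The shared bases hold 1 match to the GC box GGGCGG, searched on both strands. Over the windows from 250 bases before to 50 bases after a start site, 7 of the 10 genes had a RefSeq window (all but Lama4, Lamc1 and Nid2). GGGCGG on either strand was in 6 of these 7, the exception being Lamb2, and in 35.7% of all 32851 windows. CCAAT on either strand was in 4 of the 7 (Col4a1, Col4a2, Lamb1 and Nid1) and in 37.4% of all windows. TATAAA on either strand was in 0 of the 7 and in 13.6% of all windows. None of these motifs contains another, and a match is a description of the sequence only. The windows of Col4a1 and Col4a2 were 74.0% and 73.7% G and C, and the median of all windows was 52.7%.

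In juvenile replicates 1 to 5, Col4a1 had normalized read counts (counts scaled to a common library size) of 3475, 3646, 2718, 1786 and 3277. Adult replicates 1 to 4 had 1851, 2733, 1732 and 1990.2. Juvenile replicates 1, 2 and 5 lay above every adult library, whereas juvenile replicate 4 lay below adult replicates 1, 2 and 4. The means were 2980.4 ± 753 and 2076 ± 450.1, and the log2 fold change of 0.52 (SE 0.22, 95% confidence interval 0.04 to 0.999) did not pass the test (edgeR, unadjusted p = 0.0346, adjusted p = 0.234).

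For Col4a2 the juvenile values were 2145, 2283, 1435, 1006 and 1567, and the adult values 1191, 1929, 1303 and 1168. Juvenile replicates 1 and 2 were above all adult libraries and juvenile replicate 4 was below all of them. The log2 fold change of 0.27 (SE 0.25, interval -0.26 to 0.81, adjusted p = 0.661 by edgeR) was smaller than that of Col4a1. Per kilobase of exon, Col4a2 was below Col4a1 in 9 of 9 libraries. The log2 ratio of the counts of Col4a2 to those of Col4a1, which like the further ratios of chains was not divided by length, was -0.84 ± 0.16 in juvenile and -0.58 ± 0.16 in adult mice. Its difference of -0.26 did not pass an exact permutation test, two-sided and on the means of the ages (p = 0.0556, adjusted p = 0.222 over the 4 ratios compared). The counting protocol does not state strand, so reads in the 22 shared bases could not be assigned to either gene.

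The remaining collagen IV chains build the tissue-restricted networks of kidney, eye and other organs. Per kilobase of exon, Col4a1 made up 61.1% ± 2.71 of the collagen IV level in juvenile and 56.8% ± 2.45 in adult mice, and Col4a2 made up 38.6% ± 2.59 and 42.9% ± 2.80. Col4a3, Col4a4, Col4a5 and Col4a6 each had a mean share under 1% at both ages, and none of these 4 passed the filter on low counts.

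Among the alpha chains of laminin, Lama4 was the main one. Lama4 (chr10:38965515-39110188, plus strand) encodes the alpha chain of laminin-411, made along most vessels. Juvenile replicates 1 to 5 had normalized read counts of 687, 531, 528, 375 and 599, and adult replicates 1 to 4 had 173, 369, 447 and 333. All juvenile libraries but replicate 4 lay above every adult library, and replicate 4 lay above 3 of the 4 adult libraries. The means were 544 ± 115 and 331 ± 116, with a log2 fold change of 0.72 (SE 0.28, interval 0.10 to 1.33, unadjusted p = 0.0253 and adjusted p = 0.199 by edgeR).

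Lama5 (chr2:180176373-180225859, minus strand) encodes the alpha chain of laminin-511, found in the basement membrane of arteries and of mature capillaries, where it hinders the passage of leukocytes. Its juvenile values were 184, 213, 164, 49.5 and 124, and its adult values 133, 147, 3.88 and 231. The low adult value came from 5 counts in replicate 3, where every other library had between 42 and 294. Means were 147 ± 63.5 in juvenile and 129 ± 93.9 in adult mice, and the interval of the log2 fold change, -1.41 to 1.80 around 0.19, allowed a large difference in either direction (adjusted p = 0.945 by edgeR). Without adult replicate 3 the fold change was -0.23.

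Per kilobase of exon, Lama5 was below Lama4 in 9 of 9 libraries. The log2 ratio of the counts of Lama5 to those of Lama4 was -1.99 ± 0.59 in juvenile and -2.15 ± 2.84 in adult mice (exact permutation test, p = 0.960). Its adult values were -0.38, -1.32, -6.37 and -0.53, so that adult replicates 1 and 4 lay above the juvenile range of -2.86 to -1.31, adult replicate 2 at its upper end and adult replicate 3 far below it. Without adult replicate 3 the difference was -1.26 (exact permutation test, adjusted p = 0.167 over the 4 ratios).

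The beta and gamma chains complete the trimer. Lamb1 (chr12:31265234-31329644, plus strand), the beta chain of laminin-411 and laminin-511, had normalized read counts of 447, 274, 390.02, 166 and 472 in juvenile replicates 1 to 5 and of 375, 121, 216 and 178 in adult replicates 1 to 4. Juvenile replicates 1, 3 and 5 were above every adult library, and juvenile replicate 4 was below all but adult replicate 2. The log2 fold change was 0.65 (SE 0.38, interval -0.17 to 1.48, adjusted p = 0.428 by edgeR).

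Lamb2 (chr9:108479736-108490530, plus strand) encodes the alternative beta chain, known from arteries, the glomerulus and the neuromuscular junction. It had values of 934, 876, 636, 1263 and 879 in juvenile and of 681, 755, 489.98 and 790.3 in adult mice. Unlike the other genes, it was highest in juvenile replicate 4, and only juvenile replicate 3 fell within the adult range. The means were 918 ± 225 and 679 ± 134, with a log2 fold change of 0.44 (SE 0.22, interval -0.04 to 0.91, adjusted p = 0.343 by edgeR). Lamb2 exceeded Lamb1 per kilobase of exon in 9 of 9 libraries, with a log2 ratio of counts of 1.45 ± 0.89 in juvenile and 1.70 ± 0.82 in adult mice (exact permutation test, p = 0.659).

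Lamc1 (chr1:153218922-153332786, minus strand) encodes the gamma chain of most laminins. In juvenile mice its values were 172, 642, 228, 200.3 and 216, and in adult mice 319, 274, 325 and 190.3. Juvenile replicate 2 stood far above all other libraries, whereas the other juvenile libraries lay below the middle of the adult range. The log2 fold change of 0.08 (SE 0.39, interval -0.77 to 0.93, adjusted p = 0.961 by edgeR) became -0.44 without juvenile replicate 2 and -0.09 without adult replicate 4.

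**Figure D2:**
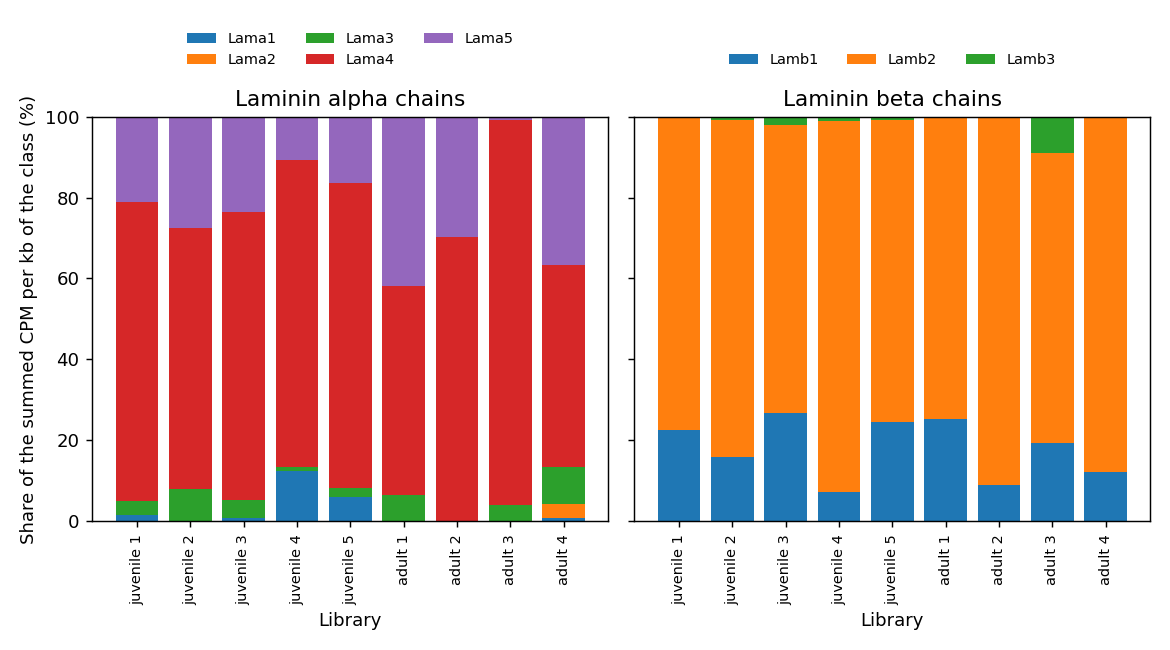
Share of each laminin chain in the summed CPM per kilobase of its class (alpha and beta chains in separate panels, percent) in each of the 9 libraries. Lama4 and Lamb2 take most of their class in every library but adult replicate 4, where Lama4 takes 49.9%.

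As a share of its class per kilobase of exon, Lama4 made up 72.2% ± 4.60 of the alpha chains in juvenile and 66.7% ± 21.1 in adult mice. Lama5 followed with 19.8% ± 6.52 and 27.3% ± 18.3. Lama1, Lama2 and Lama3 each had a mean share under 5%. Lamb2 made up 79.6% ± 8.05 of the beta chains in juvenile and 81.3% ± 9.41 in adult mice. Outside the chosen genes, the tested chains of the list were few and low. Lama3, an alpha chain best known from epithelia, had 27.0 ± 19.9 and 22.5 ± 22.4 normalized counts (log2 fold change 0.26, adjusted p = 0.951 by edgeR). Lamc3, a further gamma chain, had 27.4 ± 20.2 and 39.7 ± 42.9 normalized counts (log2 fold change -0.53, adjusted p = 0.890). Of the 9 chains listed outside the chosen genes, 3 were tested (Lama3, Lamb3 and Lamc3). Of these, 0 were called by edgeR, DESeq2 or voom, where 3.88%, 9.61% and 3.43% of all genes they tested were called. At an unadjusted p under 0.05 in edgeR there were 0, where 17.3% of all tested genes passed. With 3 genes, a count of 0 lies close to these shares. The median log2 fold change of the 3 was -0.53.

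Nidogens link laminin to collagen IV, and in many tissues either can stand in for the other. Nid1 (chr13:13437551-13512269, plus strand) was the only one of the 10 genes with a fold change below 0. It had normalized read counts of 85.3, 318, 188, 146 and 376 in juvenile and of 398, 200.2, 241 and 361 in adult mice. Juvenile replicates 1, 3 and 4 were below every adult library, while juvenile replicates 2 and 5 lay inside the adult range. The means were 223 ± 121 and 300.04 ± 94.6, with a log2 fold change of -0.43 (SE 0.41, interval -1.31 to 0.46, adjusted p = 0.682 by edgeR).

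Nid2 (chr14:19751265-19811787, plus strand) had 322, 573, 334, 121 and 476 in juvenile and 275, 243, 517 and 194 in adult mice. Values from 194 to 517 in adult libraries lay inside the juvenile range of 121 to 573. The log2 fold change was 0.25 (SE 0.41, interval -0.64 to 1.14, adjusted p = 0.841 by edgeR). Per kilobase of exon, Nid2 exceeded Nid1 in 7 of 9 libraries. The log2 ratio of the counts of Nid2 to those of Nid1 was 0.72 ± 0.79 in juvenile and -0.01 ± 0.89 in adult mice (exact permutation test, p = 0.230, adjusted p = 0.460 over the 4 ratios). Exons of Nid2 overlap those of Rtraf on the opposite strand over 437 bases, and reads there cannot be told apart without strand.

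Perlecan had the largest fold change of the 10 genes in edgeR's fit, whereas voom put Lama5 (0.98) above it (0.86). Hspg2 (chr4:137468769-137570630, plus strand) encodes a large proteoglycan whose heparan sulfate chains bind growth factors, and which is made by endothelial cells, mural cells and chondrocytes. Juvenile replicates 1 to 5 had normalized read counts of 839.7, 834, 592, 537 and 801, and adult replicates 1 to 4 had 441, 549, 260.1 and 353. Each juvenile library except replicate 4 was above every adult library, and replicate 4 lay just below adult replicate 2. The means were 721 ± 145 and 401 ± 123, a fold of 1.80 and a log2 fold change of 0.85 (SE 0.25, interval 0.31 to 1.39). By edgeR the p was 0.00488 and the adjusted p 0.0815, whereas DESeq2 gave 0.82 with an adjusted p of 0.0250. Without adult replicate 2 the edgeR value was 1.01 (adjusted p = 0.0456), and without juvenile replicates 4 and 5 it was 0.92 (adjusted p = 0.222).

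**Figure D3:**
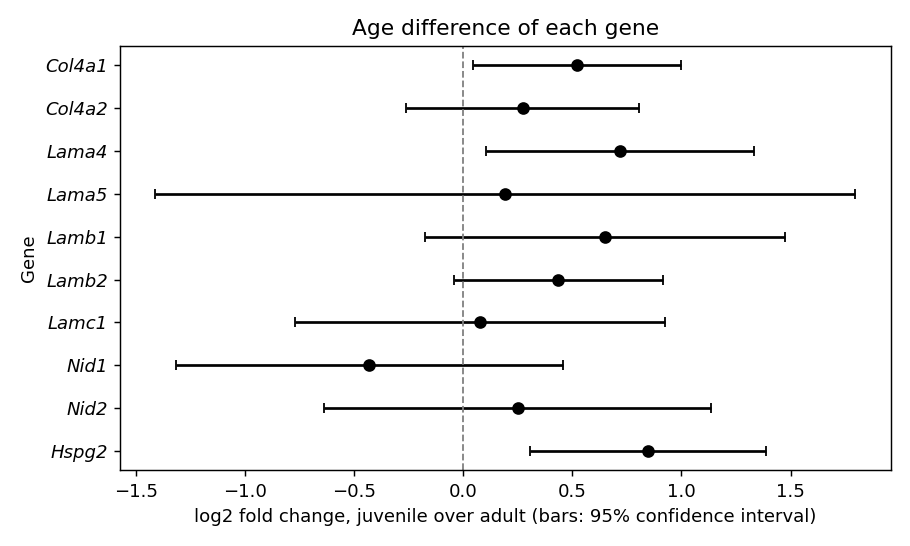
Log2 fold change of each gene, juvenile over adult, from edgeR's fit on 5 juvenile and 4 adult libraries, with bars for the 95% confidence interval. The intervals of Col4a1, Lama4 and Hspg2 lie above 0, Nid1 alone has its point below 0, and Lama5 has the widest interval, from -1.41 to 1.80.

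Levels of different genes were compared per kilobase of exon, in CPM per kilobase. The length of a gene merges the exons of all its annotated transcripts (12.068 kb for Lama4, 9.917 kb for Lamb1 and 6.082 kb for Lamb2). Levels and shares per kilobase therefore also depend on the annotation. Col4a1 had a mean of 63.6 ± 16.1 in juvenile and 44.3 ± 9.61 in adult mice. Col4a2 came next with 40.6 ± 12.7 and 33.6 ± 8.64, followed by Lamb2 with 24.0 ± 5.89 and 17.8 ± 3.51. Nid2 (11.3 and 9.47) ranked 4 at both ages, and Hspg2 (8.03 and 4.46) ranked 5 in juvenile and 7 in adult mice. Lama4 (7.18 and 4.36), Nid1 (5.12 and 6.89), Lamc1 (5.62 and 5.33) and Lamb1 (5.62 and 3.57) lay close together, and Lama5 was lowest with 2.06 and 1.80. Within libraries the order was firm at its upper end: Col4a1 exceeded Col4a2 in 9 of 9 libraries, and Col4a2 exceeded Lamb2, Lamb2 exceeded Nid2, and Nid2 exceeded Hspg2 in 8 of 9 each. Further down, Hspg2 exceeded Lama4 in 6, Lama4 exceeded Nid1 in 5, Nid1 exceeded Lamc1 in 3 and Lamc1 exceeded Lamb1 in 6 of 9 libraries. The order of these neighbours thus varied between libraries, and their differences were not tested.

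Among juvenile mice, part of the spread followed single libraries. Juvenile replicate 4 was the lowest of its age for 7 of the 10 genes (Col4a1, Col4a2, Lama4, Lama5, Lamb1, Nid2 and Hspg2) and the highest for Lamb2. The endothelial marker mean of this library, 4.995, was the lowest of all 9 libraries, and its mural marker mean of 3.62 was the lowest of its age. Juvenile replicate 2 was the highest of its age for 5 genes (Col4a1, Col4a2, Lama5, Lamc1 and Nid2). Among adult mice, no library was lowest for more than 4 or highest for more than 3 of the 10 genes. Adult replicate 2 was highest for Col4a1, Col4a2 and Hspg2 but lowest for Lamb1 and Nid1. This library had the highest endothelial mean (5.78) and chondrocyte mean (7.27) of all libraries. Adult replicate 3 was lowest for Col4a1, Lama5, Lamb2 and Hspg2 but highest for Lama4, Lamc1 and Nid2. Its endothelial mean was 5.14 and its chondrocyte mean 0.74. The part of these cell types in the levels was not tested.

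**Figure D4:**
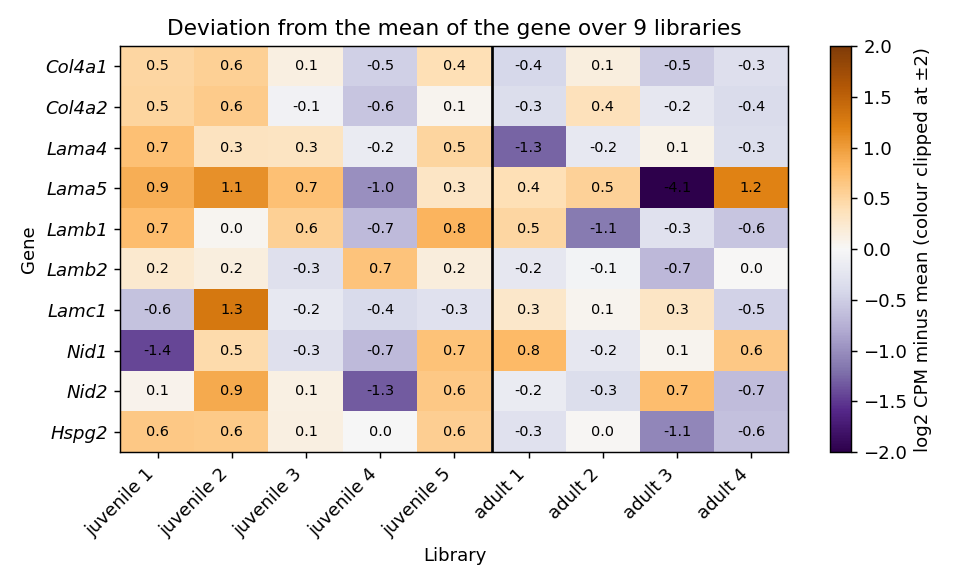
Deviation of each gene (rows) in each library (columns) from the mean of that gene over the 9 libraries, in log2 CPM, with the value printed in each cell and the colour clipped at 2 either way. Juvenile replicate 4 differs from the other juvenile libraries in most rows, and the lowest cell is Lama5 in adult replicate 3.

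Each gene was also set against the endothelial markers of its own library, as log2 CPM minus the mean log2 CPM of the 13 markers. On this scale 2 of the 10 genes, Col4a1 and Hspg2, had ages that did not overlap, both higher in juvenile mice, where 4.48% of all tested genes were separate in that direction and 6.83% in either direction. Hspg2 lay at 1.43 ± 0.08 in juvenile and 0.51 ± 0.20 in adult mice. Col4a1 lay at 3.46 ± 0.18 and 2.90 ± 0.14. Lama4 also had a narrow juvenile spread, at 1.03 ± 0.13, but ranged more widely in adult mice, at 0.20 ± 0.72. These values are a description, since mural, bone and other cells in the libraries also transcribe these genes. Vwf, among the 13 endothelial markers, is also in the megakaryocyte list. It had 20.4 ± 12.4 normalized counts in juvenile and 141 ± 149 in adult mice, and its part in the separation was not tested.

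**Figure D5:**
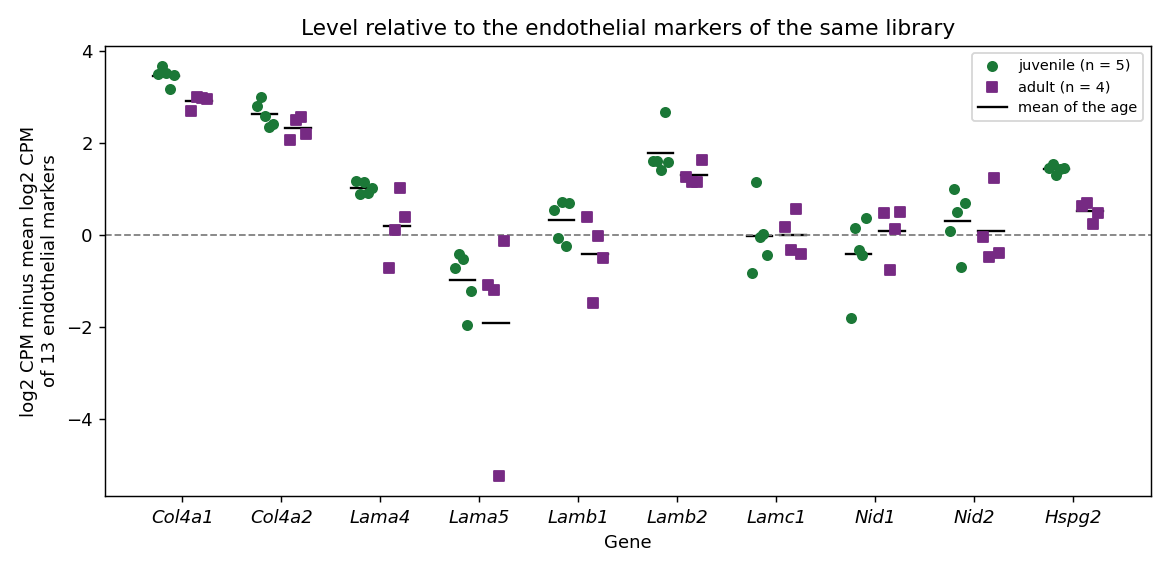
Log2 CPM of each gene minus the mean log2 CPM of 13 endothelial markers in the same library, with juvenile mice as circles (n = 5), adult mice as squares (n = 4) and a bar at the mean of each age. The ages separate for Col4a1 (means 3.46 and 2.90) and Hspg2 (1.43 and 0.51) and overlap for the other genes.

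Profiles over the 9 libraries were compared by the root mean square difference of log2 CPM after each gene's mean was subtracted. This difference was not scaled, so genes with little spread lie closer to each other. The root mean square deviation from the own mean was 0.41 for Col4a1, 0.39 for Col4a2 and 1.57 for Lama5. Its median over the tested genes was 0.66. The closest pair among the 10 genes was Col4a1 and Col4a2, with a difference of 0.19, and Col4a1 and Hspg2 came next with 0.27. Of the 13417 other tested genes, those nearest to Col4a1 were Gnai2 (0.19), Col4a2 (0.19) and Exosc2 (0.19), so that Col4a2 ranked 2. Seen from Col4a2, Col4a1 ranked 3, after Exosc2 and Thoc6. Hspg2 was nearest to Auts2 (0.18), with Col4a1 at rank 21. The genes nearest to Lama4 were Syvn1, Tcf12 and Ddx3x, and Col4a1 was at rank 234. For the other 6 members the nearest gene of the 10 ranked between 193 (Col4a2 for Nid2) and 1489 (Hspg2 for Lamb2). Their nearest genes overall were Prepl for Lama5, Agrn for Lamb1, Washc1 for Lamb2, Ppil1 for Lamc1, Slc16a7 for Nid1 and Lypla1 for Nid2. With 9 libraries and 13418 genes, small differences arise between many pairs of genes, and library depth is shared by all of them.

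Other genes of the basement membrane were described from 5 lists with 58 genes in all, of which 50 were tested and 9 were called, all higher in juvenile mice, where 3.88% of all tested genes were called and 1.99% in that direction. Among 12 further components, 3 were called higher in juvenile mice, and the median log2 fold change of the 12 was 0.51 (-0.01 over all tested genes). Col18a1, a heparan sulfate collagen of vascular basement membranes, had a mean normalized read count of 685 ± 251 in juvenile and 262 ± 44.3 in adult mice (log2 fold change 1.39, adjusted p = 0.0186 by edgeR). Sparc, a collagen-binding protein that bone-forming cells secrete in large amounts, was higher in juvenile mice by a log2 fold change of 1.21 (adjusted p = 0.00263), and Smoc2, a relative of Sparc, by 1.53 (adjusted p = 0.0280). Egfl7, secreted by endothelial cells, had a log2 fold change of -0.08 (adjusted p = 0.877). The call of Col18a1 was lost by voom and without adult replicate 3 or 4, and that of Smoc2 by voom and without any 1 of juvenile replicates 1 and 2 and adult replicates 2 and 4. Smoc2 was also not called without juvenile replicates 4 and 5 together (1.78, adjusted p = 0.0837 by edgeR). The osteoblast marker mean was higher in juvenile mice, and its part in the values of these components was not tested.

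Of 12 tested receptors for laminin, collagen IV and other matrix proteins, 0 were called by edgeR, DESeq2 or voom. With 3.88% of all tested genes called by edgeR, a count of 0 among 12 lies close to the background. At an unadjusted p under 0.05 there were 0 of the 12, where 17.3% of all tested genes passed. Itgb1, the beta subunit shared by most laminin-binding and collagen-binding integrins, had 2634 ± 388 and 2417 ± 446 normalized counts, a log2 fold change of 0.12 (interval -0.25 to 0.50). Itgav had -0.05. The fold change was above 0 for 5 and below 0 for 7 of these 12 receptors, with a median of -0.09.

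Of 13 genes for the folding and modification of collagen, 4 were called higher in juvenile mice (1.99% of all tested genes were), with a median log2 fold change of 0.66 over the 13, and these enzymes act on fibrillar collagens as well as on collagen IV. Serpinh1, the collagen chaperone, had normalized read counts of 9578 to 13162 in juvenile and of 3438 to 5534 in adult mice (log2 fold change 1.22, adjusted p = 0.00309 by edgeR). The prolyl 3-hydroxylase P3h1 was higher in juvenile mice by 0.91 (adjusted p = 0.00626), the prolyl 4-hydroxylase subunit P4ha2 by 1.56 (adjusted p = 0.0267) and its partner P4hb by 0.59 (adjusted p = 0.0448). The osteoblast marker mean was higher in every juvenile than in every adult library, and its part in these values was not tested. Plod2, a lysyl hydroxylase, had 0.66 (adjusted p = 0.199), and 0.96 without adult replicate 3 (adjusted p = 0.0455). P4ha2 lost its call without any 1 juvenile library and without adult replicate 3 or 4, P4hb without any 1 library except adult replicate 2, and P3h1, P4ha2 and P4hb without juvenile replicates 4 and 5 together.

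Of 10 tested proteases and inhibitors listed for turnover of the membrane, 2 were called higher in juvenile mice (1.99% of all tested genes were). The median log2 fold change of the 10 was 0.12. The osteoblast marker mean was also higher in juvenile mice, and its part in the values of these 10 genes was not tested. Mmp2, a gelatinase that cleaves collagen IV, had 4480.5 to 5155 normalized counts in juvenile and 1466 to 2416 in adult mice (log2 fold change 1.42, adjusted p = 0.00109 by edgeR). Timp1, an inhibitor of these proteases, was higher in juvenile mice by 1.96 (adjusted p = 0.00538), but was not called without juvenile replicates 4 and 5 (1.90, adjusted p = 0.0669). Mmp9, the other gelatinase, had 31498 ± 9069 and 28880.2 ± 7414 normalized counts, a log2 fold change of 0.13 (adjusted p = 0.860), and Mmp13, a collagenase, had 0.11 (adjusted p = 0.852).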

How the data were processed

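RNA was sequenced in 9 libraries, 5 juvenile and 4 adult. The authors amplified cDNA with a SMART-Seq kit and sequenced paired-end reads. They mapped the reads to mm10 (GRCm38) with TopHat2 and Bowtie2 and deposited counts per Ensembl gene, without normalization. The submitters' notes also name featureCounts. Its version, strand setting and annotation were not given in the sources used here. Symbols, positions and merged exon lengths came from the GENCODE annotation of GRCm38, which holds 37693 of the 39179 genes, and promoter sequence came from RefSeq.

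Groups and replicate numbers came from the labels, which give no batch. The p-value of edgeR sets the difference between the ages against the spread between mice within them. With 1 library per mouse, differences of dissection and amplification are part of that spread. The main test was edgeR 4.0.16 under R 4.3.3 (filterByExpr, TMM, quasi-likelihood F test, no covariate). Alternatives were DESeq2 1.42.0, limma 3.58.1 voom with quality weights, other scaling, other filters (none, or at least 10 counts in each library), a block for the replicate number, dominant gene families left out, each library left out, and juvenile replicates 4 and 5 left out. Ratios of chains within a library used a prior count of 2 and a two-sided exact permutation test, with a prior of 0.5 and the difference of medians as alternatives. The log2 CPM used a prior count of 2. Scripts were tested on simulated data.

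Named pathway genes were those called and the 2 tested genes of each list with the highest mean log2 CPM. Members and lists were chosen with earlier results of these data known. 1 gene of these lists is not reported here.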

Additional observations from a re-analysis of the deposited data

Results flagged for a closer look

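In 28 groups of libraries tested (each gene and ratio within each age), Dixon's test found a library far from the rest in 2, and chance gives about 1 in 20, or 1.4 of the 28. Lamc1 in juvenile replicate 2 had a normalized read count of 642, and the other juvenile libraries had 172 to 228. The log2 ratio of Lama5 to Lama4 in adult replicate 3 was -6.37, and the other adult libraries had -1.32 to -0.38. This ratio rests on 5 counts of Lama5.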

How the results depend on the processing

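The sign of the log2 fold change held under all 18 alternatives for Col4a1, Col4a2, Lama4, Lamb1, Lamb2, Nid1, Nid2 and Hspg2. Lama5, which had no value under the minimum of 10 counts in every library, kept its sign in 16 of 17, and Lamc1 in 14 of 18. DESeq2 called 1492 genes (720 higher in juvenile, 772 in adult), where edgeR called 520 (267 and 253). It called 1 member (Hspg2, 0.82) and 7 assembly genes. Voom called 1 further component and gave Lama5 a value of 0.98, Col4a2 0.16, Lamc1 -0.042, Lamc3 0.87 and Itgav 0.020. Without juvenile replicates 4 and 5, 73 genes were called (42 and 31), with 2 further components, 1 assembly gene and 1 turnover gene. Col4a2 was then at 0.49, Lama5 at 0.55, Lamb2 at 0.27, Lamc1 at 0.33, Nid2 at 0.42 and Itgav at 0.025. With the difference of medians the ratio of Lama5 to Lama4 differed by -0.96.

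The labels state no pairing of mice by replicate number. The deviations of same-numbered libraries had correlations of -0.03 to 0.03 in 4 pairs, which cannot decide whether libraries were processed in pairs. With the replicate number as a block, 89 genes were called (53 and 36), 0 further components and 1 assembly gene, and Lama5 was at 0.70, Nid1 at -0.80, Nid2 at 0.034, Lamc1 at -0.032, Lamc3 at 1.07 and Itgav at 0.031. Col18a1, Sparc, Smoc2, P4ha2, P4hb and P3h1 lost their calls, and no member was called with the block.

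Leaving out 1 library at a time gave 262 to 651 called genes (145 to 306 higher in juvenile and 117 to 345 in adult), with 262 to 332 without juvenile replicate 2, 3, 4 or 5. Members called numbered 0 to 1, further components 1 to 3 and assembly genes 2 to 5. The 2 turnover genes were called each time. The fold change ranged from 0.67 to 1.01 for Hspg2, from -0.23 to 0.62 for Lama5 and from -0.44 to 0.22 for Lamc1. Among members that kept their sign, it ranged from 0.026 to 0.60 for Nid2, -0.70 to -0.22 for Nid1, 0.43 to 1.01 for Lamb1, 0.29 to 0.54 for Lamb2 and 0.14 to 0.45 for Col4a2. The ratio of Lama5 to Lama4 ranged from -1.26 to 0.74 and that of Lamb2 to Lamb1 from -0.62 to 0.054. Uncalled pathway genes whose sign turned were Lama3 (-0.22 to 1.11), Lamc3 (-0.99 to 0.13), Itgb1 (-0.015 to 0.19), Itgav (-0.25 to 0.14), Mmp9 (-0.058 to 0.22) and Mmp13 (-0.064 to 0.20). The cause of these shifts was not tested. Serpinh1 and Mmp2 stayed called under all 18 alternatives, Sparc and Timp1 under 17, P3h1 under 16, Col18a1 under 14, Smoc2 under 11, P4ha2 under 9 and P4hb under 6. With 9 libraries the intervals of Lama5, Lamc1, Nid1 and Nid2 were wide around 0, and no age difference of these genes was detectable.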
